A study of Homo sapiens with 16 samples.

Results

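G401 is an established line of human kidney rhabdoid tumor cells, in which the SWI/SNF subunit gene SMARCB1 is lost. RNA was sequenced on days 1, 2, 3 and 5 from G401 cells with a CRISPR guide to LacZ or to BRD9. LacZ is a bacterial gene absent from the human genome, and BRD9 is a SWI/SNF subunit. The comparison described here is that of the LacZ control cells on day 3 with the LacZ control cells on day 2, which is 4 of the 16 libraries (2 on each day), chosen by the labels of guide and day and not by any measured value. All groups were grown in DMEM with 10% fetal bovine serum, and the labels give no treatment. For its CRISPR work the study describes lines given Cas9 by a lentivirus and kept in blasticidin. Guides were then brought in by a second lentivirus, with puromycin selection. How the days relate to infection and selection is not stated. The BRD9 knockout (KO) cells on the same days and the LacZ cells on days 1 and 5 have a limited role. They serve only to show where the step from day 2 to day 3 differed. LacZ is the control of the study, so the comparison measures the difference between the control libraries of these days and not an effect of BRD9 loss. The LacZ cells come from 1 line, and whether they were a pool or a clone is not stated. Each day is a single pair of libraries, and the event from which days were counted is not given in the sources used here. Day and harvest therefore cannot be told apart.

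Cells in a dish pass through changes of density, medium and growth rate, and several gene systems are known to follow these. Immediate-early genes and the AP-1 and EGR factors are switched on by growth factor signals. NF-kB factors are held in the cytoplasm by inhibitor proteins and drive genes of inflammation and survival, including the genes of their own inhibitors. Chaperones of the endoplasmic reticulum are induced when unfolded protein collects there, the factor ATF4 drives genes of amino acid supply, and SREBP factors drive the synthesis of sterols and fatty acids. These systems, the cell cycle, the ribosome, the cytoskeleton and the mitochondrial genome are described in turn.

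The 4 libraries held between 11598798 and 12759893 counts (9185808 to 16560669 over the whole series). Of 57820 genes, 15027 passed the filter on low counts. The 2 libraries of a day differed by little more than counting noise: the median gap between them was 1.10 times that of counting alone on day 2 and 1.07 times on day 3. The study calls its replicates biological, but nothing states that they came from separate cultures. The p-values therefore measure only the spread between libraries of the same guide and day, estimated over all 16 libraries. SMARCB1 had 0 counts in all 4 libraries, which allows up to 3 counts in each. KRT8, KRT18 and VIM, which rhabdoid cells express, stood between 1878 and 4283 CPM (counts scaled to library size). MUC1, from the same marker list, went from 14.8 and 15.7 CPM to 11.3 and 12.4 CPM and lost its call when any 1 of the 4 libraries was left out (adjusted p 0.0609 to 0.185). None of the 6 blood markers and 8 markers of kidney epithelium passed the filter, and CDH5 and KDR, which define endothelium, were at 0. VWF, another endothelial gene, stood at 0.55 and 1.19 CPM on day 2 and 1.94 and 2.30 CPM on day 3 (adjusted p = 0.019, but 0.226 without LacZ day 2 replicate 1 and 0.11 without LacZ day 3 replicate 2). Of the 5 fibroblast-like markers, DCN was at 0 and LUM had at most 1 count, while 1 of the 3 tested rose and COL3A1, a fibrillar collagen, fell from 566 and 561 CPM to 466 and 457 CPM. The summed level of these 5 was 789 and 778 CPM on day 2 and 703 and 688 CPM on day 3, and that of the 4 endothelial markers 0.55 and 1.19 CPM and then 1.94 and 2.38 CPM; their part in the results was not tested.

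Between day 2 and day 3 many transcripts moved, most by little. Of the 15027 genes, 3771 (25.1%) were called at an adjusted p under 0.05 in edgeR's quasi-likelihood test. On day 3 1954 (13%) were higher and 1817 (12.1%) were lower. The median size of a called change was 0.27 on the log2 scale, 3151 called genes moved by less than 0.5 and 161 by at least 1 (86 higher, 75 lower). With limma on TPM values, which are scaled without the TMM step, the split was 733 higher and 1245 lower. These percentages are the background against which each count of list members is to be read. They cover all tested genes and are not matched to the level of a list's members. Of the splicing factors, for example, 60.6% were called at a median of −0.005. Rose, fell, higher and lower are used for called genes. Every fold change is the log2 of day 3 over day 2, from 2 against 2 libraries, and levels are CPM scaled by TMM factors. The standard error beside it comes from the fit to all 16 libraries, in which the 8 groups share the estimate of spread.

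**Figure D1:**
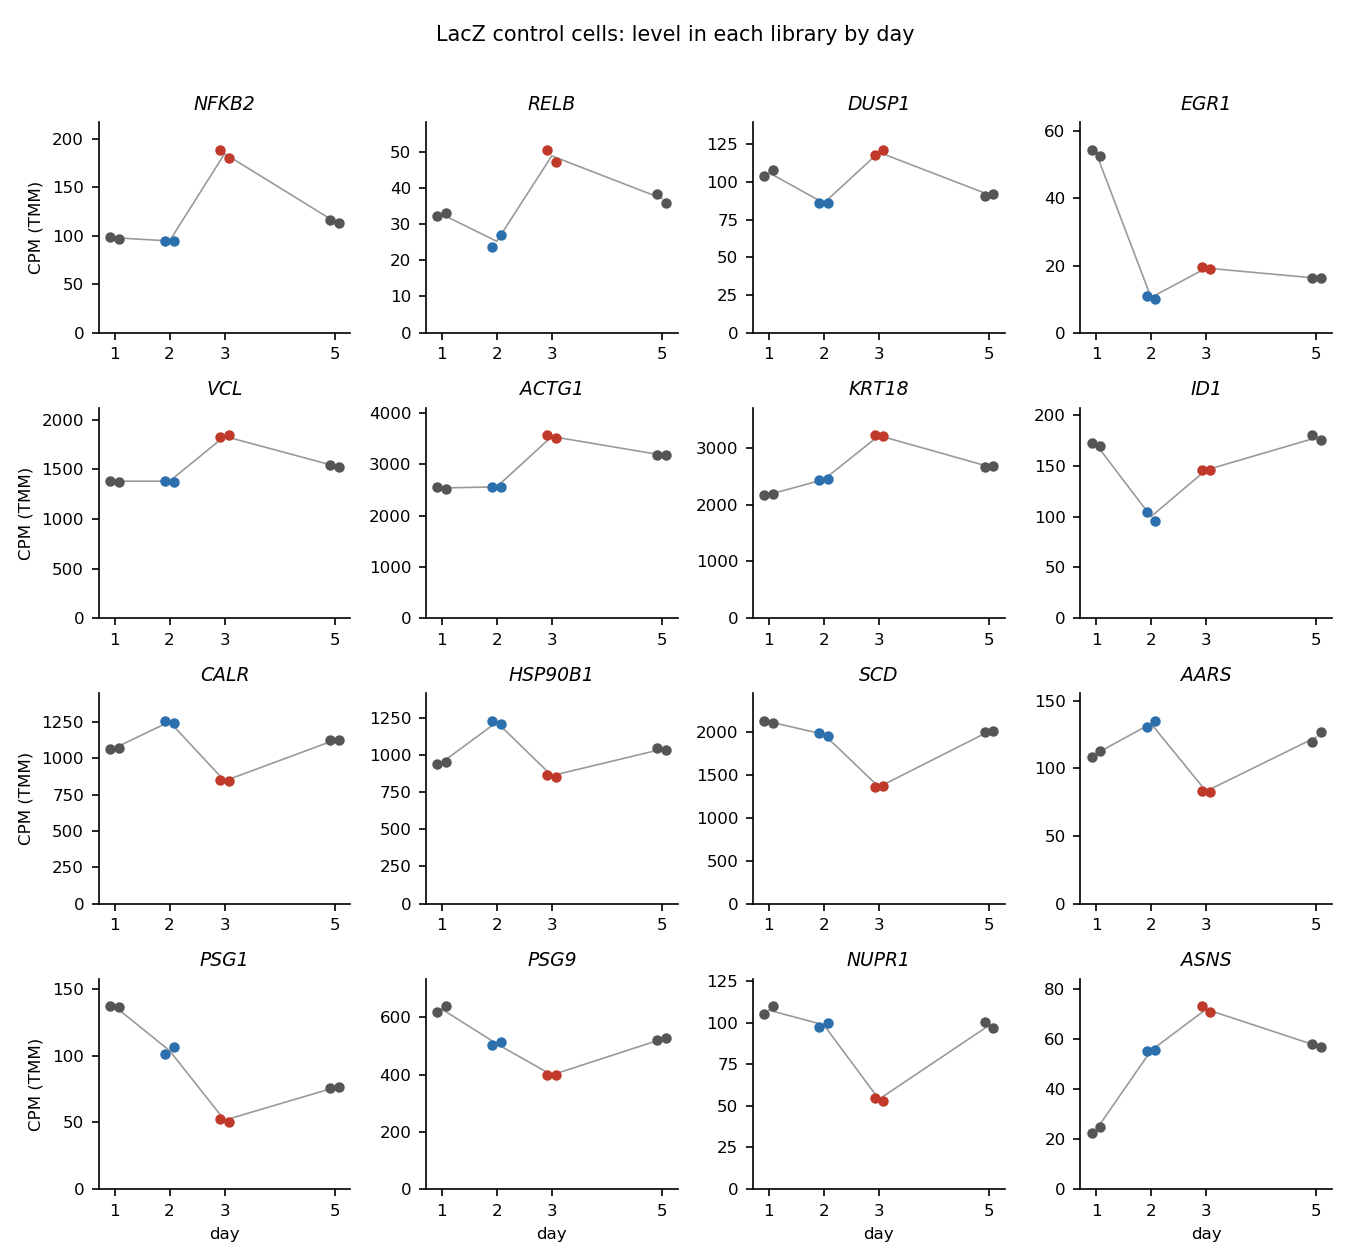
CPM (y axes, each from 0) of 16 genes in each LacZ library by day (x axes). Points are single libraries, with day 2 in blue, day 3 in red and the other days in dark grey, and the line joins the means. The 16 genes were picked among called genes, so the separation of day 2 from day 3 in the panels is not a further result. NFKB2 went from 94.8 and 94.6 CPM to 189 and 181 CPM, and CALR from 1260 and 1247 CPM to 849 and 841 CPM.

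Genes of the NF-kB system rose. Of 18 members tested, 10 rose and none fell, with a median of 0.37 (median of all genes 0.00). NFKB2, the precursor of p52 in the non-canonical arm, went from 94.8 and 94.6 CPM to 189 and 181 CPM, a log2 fold change of 0.96 ± 0.04 (adjusted p = 6.92e-12). RELB, the partner of p52, went from 23.6 and 26.9 CPM to 50.5 and 47.1 CPM (0.96 ± 0.07, adjusted p = 2.02e-08). For both genes the libraries of a day lay close together and the days did not overlap. The inhibitor genes NFKBIA (84.5 and 84.7 CPM to 112 and 112 CPM, 0.40 ± 0.04) and NFKBIE (15.6 and 17.4 CPM to 26.0 and 28.7 CPM, 0.73 ± 0.09) rose as well, as did BIRC2, an inhibitor of apoptosis that restrains non-canonical signalling (0.66 ± 0.04). ICAM1 (−0.05 ± 0.04, adjusted p = 0.436) and SOD2 (0.10 ± 0.04, adjusted p = 0.0553), both abundant NF-kB targets, did not pass the test.

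The kappaB motif, the site that NF-kB dimers bind, was searched on both strands in the window from 250 bases before to 50 bases after the first listed start of each gene in RefSeq (GRCh38.p14). It was found for 6 of the 14 members with a promoter there (4 of the 6 rose, and 3 of the 8 without it), against 5.72% of the 27305 genes with a promoter in the table, each by its first listed start. A match is a stretch of letters and not a shown binding site. Here and below, the lists were written by hand around known systems. A motif share above that of all genes is therefore not a result of these libraries. The 100 bases around the match are given for 4 genes that rose, read 5′ to 3′ on the gene's strand with the match in capitals, to set the rise beside its sequence. IL6, IRF1 and NFKB1 were chosen for the motif after their values were seen.
NFKBIA (chr14:35404776-35404875, minus strand): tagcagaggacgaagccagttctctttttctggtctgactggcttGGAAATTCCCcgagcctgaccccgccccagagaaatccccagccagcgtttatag
NFKB1 (chr4:102501259-102501358, plus strand): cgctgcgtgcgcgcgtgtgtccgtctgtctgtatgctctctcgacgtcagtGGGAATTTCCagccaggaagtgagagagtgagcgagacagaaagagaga
IRF1 (chr5:132490774-132490873, minus strand): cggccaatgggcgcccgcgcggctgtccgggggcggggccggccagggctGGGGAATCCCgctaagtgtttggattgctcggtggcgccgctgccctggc
IL6 (chr7:22727082-22727181, plus strand): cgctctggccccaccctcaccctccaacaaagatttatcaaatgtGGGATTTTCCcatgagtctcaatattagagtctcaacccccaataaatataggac

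IL6, a cytokine, went from 9.35 and 10.8 CPM to 15.8 and 14.3 CPM (0.58 ± 0.13, adjusted p = 0.00252). IRF1, an interferon-pathway factor, changed by 0.42 ± 0.08 (adjusted p = 7.04e-04). NFKB1, the precursor of p50, changed by 0.22 ± 0.05 (adjusted p = 0.00422, but 0.0808 without LacZ day 2 replicate 2). All 3 had smaller fold changes than NFKB2.

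Immediate-early genes and AP-1 factors rose together with their feedback inhibitors. Of 28 members tested, 19 rose and 1 fell (median 0.23), although limma on TPM called only 8 of them higher. EGR1, an early growth response factor, went from 11 and 9.97 CPM to 19.6 and 18.9 CPM (0.87 ± 0.09, adjusted p = 1.77e-06), still far under its day 1 mean of 53.6 CPM. The phosphatases DUSP1 (85.8 and 86.2 CPM to 118 and 121 CPM, 0.48 ± 0.04) and DUSP5 (0.60 ± 0.07), which switch off MAP kinases, and SPRY4, an inhibitor of receptor tyrosine kinase signalling (0.57 ± 0.06), rose too. KLF4 was the exception, at 6.13 and 4.77 CPM and then 3.23 and 3.33 CPM (−0.74 ± 0.21, adjusted p = 0.0151), and its call was lost without LacZ day 2 replicate 1 (0.168), without LacZ day 3 replicate 1 (0.0713) and without LacZ day 3 replicate 2 (0.0621). JUND, a more abundant AP-1 member, did not pass (0.00 ± 0.06, adjusted p = 0.979).

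Part of the list on TGF-beta and bone morphogenetic protein (BMP) signalling rose. Of its 19 members 9 rose, 1 fell and 9 did not pass the test (median 0.17). ID1 and ID3, which block differentiation factors and are direct BMP targets, went from 104 and 95.8 CPM to 146 and 146 CPM (0.54 ± 0.04, adjusted p = 1.26e-08) and from 341 and 349 CPM to 462 and 467 CPM (0.43 ± 0.02). The ligand BMP4 (0.23 ± 0.02), the pseudoreceptor BAMBI (0.29 ± 0.02) and the shared mediator SMAD4 (0.31 ± 0.05) were also higher. TGFB1, the ligand of the other branch, was the 1 member that fell, from 35.8 and 39.3 CPM to 28.3 and 26.5 CPM (−0.45 ± 0.08, adjusted p = 2.48e-04).

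Many cytoskeletal genes rose. In the list of serum response and actin genes, 17 of 30 rose and 2 fell (median 0.14). ACTG1, cytoplasmic gamma-actin, went from 2557 and 2560 CPM to 3567 and 3518 CPM (0.47 ± 0.01, adjusted p = 1.30e-14). The focal adhesion genes VCL (1386 and 1377 CPM to 1823 and 1846 CPM, 0.41 ± 0.01) and ZYX (181 and 199 CPM to 295 and 296 CPM, 0.64 ± 0.04), the tropomyosin gene TPM1 (0.37 ± 0.01) and the actin binder TAGLN (0.47 ± 0.02) moved the same way. The members that fell were MYH10, a nonmuscle myosin (−0.34 ± 0.02), and CNN1, a smooth muscle calponin, from 9.43 and 10.1 CPM to 3.88 and 3.01 CPM (−1.50 ± 0.19, adjusted p = 1.34e-05). The YAP and TEAD list, genes that respond to cell shape and contact, had 11 of 20 members higher and none lower (median 0.14; 5 higher with limma on TPM). CTGF, a classic YAP target, went from 126 and 131 CPM to 176 and 183 CPM (0.48 ± 0.04, adjusted p = 1.84e-08), and LATS2, a kinase that restrains YAP, changed by 0.37 ± 0.04. YAP1 itself (0.25 ± 0.03) and TEAD1 (0.24 ± 0.02) rose by less, and AMOTL2 did not pass (0.05 ± 0.03, adjusted p = 0.244). The keratins that pair in simple epithelia were higher as well, with KRT18 at 2440 and 2452 CPM and then 3228 and 3213 CPM (0.40 ± 0.01) and KRT8 at 3359 and 3369 CPM and then 4283 and 4238 CPM (0.34 ± 0.02). The kit does not mark strand, and KRT8 and KRT18 overlap at one end on opposite strands, so reads from that overlap cannot be told apart. In their list 6 of 11 genes rose, or 3 without LacZ day 3 replicate 2, and NEFH, a neurofilament subunit, was the 1 that fell (−0.52 ± 0.05).

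The CArG box, bound by the serum response factor, was found in 5 of the 24 actin-list promoters (4 of these 5 genes rose, and 9 of the 19 without it) against 1.29% of all genes in the table. The searched pattern matches both strands at the same place, though the letters of a given box can differ between strands. ACTG1 and TPM4 carry it in the stretches below, with the box in capitals; TPM4, a second tropomyosin, belongs to the 17 members that rose.
ACTG1 (chr17:81512839-81512938, minus strand): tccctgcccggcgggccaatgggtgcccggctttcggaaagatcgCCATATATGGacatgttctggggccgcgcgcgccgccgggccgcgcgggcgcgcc
TPM4 (chr19:16067320-16067419, plus strand): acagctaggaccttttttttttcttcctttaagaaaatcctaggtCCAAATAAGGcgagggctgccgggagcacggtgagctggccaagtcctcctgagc

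The protein-making machinery moved a little in many genes. Of 76 ribosomal protein genes, 51 rose and 1 fell, with a median of only 0.10 (limma on TPM called 31 higher). Their summed level was 48320 and 49280 CPM on day 2 and 52340 and 52200 CPM on day 3, so the days did not overlap. RPL5 (821 and 816 CPM to 958 and 957 CPM, 0.23 ± 0.02, adjusted p = 6.32e-09) and RPL11 (0.22 ± 0.02), which join the 5S particle of the large subunit, had the highest fold changes of the list, and RPL8 did not pass (0.00 ± 0.02, adjusted p = 0.992). RPS15 was the 1 called lower (−0.09 ± 0.03, adjusted p = 0.0255), a call that was lost without LacZ day 2 replicate 2 (0.315) or LacZ day 3 replicate 2 (0.266). Translation factors had 10 higher and 5 lower of 27, with the elongation factor EEF2 at 3206 and 3208 CPM and then 3680 and 3642 CPM (0.19 ± 0.01), EIF3L at 0.29 ± 0.02, and the helicase EIF4A1 in the other direction (−0.29 ± 0.02). Nucleolar genes of ribosome assembly had 14 of 36 higher and 1 lower, while MYC network and other MYC targets had 3 of 16 higher and 6 lower. Over both groups 17 rose and 7 fell, with 11 higher without LacZ day 2 replicate 2 and 4 lower without LacZ day 3 replicate 1. With limma on TPM, 5 of them rose and 8 fell. Among splicing factors 12 of 33 rose and 8 fell, but 6 rose and 9 fell with limma on TPM. SRSF5, a serine- and arginine-rich factor, rose from 187 and 186 CPM to 261 and 263 CPM (0.49 ± 0.03, adjusted p = 4.10e-10). SRSF6 (0.33 ± 0.03) and CLK1, a kinase of such factors (0.36 ± 0.04), rose with it.

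Chaperones of the endoplasmic reticulum fell. Of 24 members tested 14 were lower and 1 higher (median −0.24), and their summed level went from 7643 and 7595 CPM to 5981 and 5941 CPM. CALR, a lectin chaperone, went from 1260 and 1247 CPM to 849 and 841 CPM (−0.57 ± 0.02, adjusted p = 1.37e-14). HSP90B1, the HSP90 of this compartment, went from 1231 and 1210 CPM to 868 and 854 CPM (−0.50 ± 0.02), and CANX, the membrane-bound lectin chaperone, from 1097 and 1073 CPM to 862 and 870 CPM (−0.33 ± 0.02). HSPA5, which also binds the stress sensors, went from 839 and 839 CPM to 682 and 665 CPM (−0.32 ± 0.02, adjusted p = 7.74e-10), and the disulfide isomerase PDIA4 changed by −0.40 ± 0.03. XBP1, the factor that drives many of these genes, did not pass (123 and 116 CPM, then 115 and 117 CPM, −0.04 ± 0.05, adjusted p = 0.53). The count of XBP1 covers all forms of its mRNA, and the activity of the factor was not measured. EDEM1, which hands misfolded proteins to degradation, was the 1 member that rose (0.25 ± 0.05, adjusted p = 0.00123, but 0.225 with limma on TPM).

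The endoplasmic reticulum stress element, spelled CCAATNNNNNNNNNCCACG and searched on both strands, was present in 6 of the 23 members with a promoter in the table, namely CALR, CANX, CRELD2, HSP90B1, HSPA5 and XBP1, against 0.0806% of all genes in the table. Of these 6 genes 5 fell and XBP1 was not called; of the 17 without it 8 fell and 1 rose. The element lies 207 bases before the start site in CALR, 133 in CANX, 71 in HSP90B1, 48 in HSPA5 and 34 in XBP1. It is shown in capitals, because several abundant members that fell share it with the member that was not called. In CALR and HSP90B1 the match is on the opposite strand.
CALR (chr19:12938359-12938458, plus strand): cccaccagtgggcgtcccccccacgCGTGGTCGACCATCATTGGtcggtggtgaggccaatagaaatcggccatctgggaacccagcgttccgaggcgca
HSP90B1 (chr12:103930280-103930379, plus strand): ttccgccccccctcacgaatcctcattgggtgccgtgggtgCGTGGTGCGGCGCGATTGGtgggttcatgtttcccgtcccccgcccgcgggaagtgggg
CANX (chr5:179698737-179698836, plus strand): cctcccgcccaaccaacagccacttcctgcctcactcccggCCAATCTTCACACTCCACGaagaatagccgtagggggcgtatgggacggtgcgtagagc
HSPA5 (chr9:125241351-125241450, minus strand): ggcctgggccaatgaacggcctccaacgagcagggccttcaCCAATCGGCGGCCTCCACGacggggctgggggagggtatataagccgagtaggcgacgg
XBP1 (chr22:28800570-28800669, minus strand): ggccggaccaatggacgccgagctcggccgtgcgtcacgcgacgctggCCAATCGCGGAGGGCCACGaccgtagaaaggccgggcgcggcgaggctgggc

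Chaperones of the cytosol and mitochondria fell as well, with 11 of 18 heat shock genes lower and 3 higher (median −0.19). HSP90AB1 went from 2566 and 2564 CPM to 2203 and 2201 CPM (−0.22 ± 0.01, adjusted p = 1.96e-11), HSP90AA1 changed by −0.15 ± 0.01, the mitochondrial HSPD1 by −0.22 ± 0.02, the small heat shock gene HSPB1 by −0.30 ± 0.02 and HSPH1, a nucleotide exchange factor, by −0.32 ± 0.03. CRYAB, another small heat shock gene, went the other way, from 318 and 328 CPM to 366 and 366 CPM (0.18 ± 0.02, but adjusted p = 0.0969 with limma on TPM). HSPA8, the constitutive HSP70, changed by only 0.05 ± 0.01 (adjusted p = 0.00605, and 0.0989 without LacZ day 3 replicate 1).

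The amino acid response list, genes that ATF4 is known to drive, had 17 of 33 members lower and 4 higher (median −0.18), and did not move as one. NUPR1, a small stress-induced chromatin protein, went from 97.6 and 99.6 CPM to 55.0 and 52.9 CPM (−0.87 ± 0.05, adjusted p = 4.77e-10). PYCR1, a proline synthesis enzyme (−0.49 ± 0.06), PSAT1 of serine synthesis (−0.28 ± 0.03), CBS of the transsulfuration path (−0.34 ± 0.05) and SESN2, a leucine sensor (−0.36 ± 0.05), also fell. ASNS, asparagine synthetase, rose instead, from 55.2 and 55.5 CPM to 73.0 and 70.6 CPM (0.38 ± 0.05, adjusted p = 8.85e-06), and so did the transporters SLC38A2 (0.28 ± 0.03) and SLC7A1 (0.26 ± 0.03). SLC3A2, the heavy chain of several transporters, did not pass (−0.09 ± 0.04, adjusted p = 0.123). Of the 20 cytosolic tRNA synthetases, the enzymes that charge tRNAs, 12 fell and 4 rose (median −0.15). AARS, for alanine, went from 131 and 135 CPM to 83.5 and 82.7 CPM (−0.68 ± 0.05, adjusted p = 4.56e-09), while YARS (−0.32 ± 0.03) and WARS (−0.28 ± 0.04) fell by less and FARSB rose (0.21 ± 0.04). The amino acid response element TGATGNAA, searched on both strands, was found in 5 of 27 promoters of the ATF4 list against 3.67% of all genes in the table. Of the 5 genes with it 2 rose and none fell, and of the 22 without it 2 rose and 12 fell. The stretch of ASNS is shown, with the element in capitals, as the member that moved against most of its list.
ASNS (chr7:97872423-97872522, minus strand): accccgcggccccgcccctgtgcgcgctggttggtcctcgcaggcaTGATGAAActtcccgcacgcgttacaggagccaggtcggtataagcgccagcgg

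Enzymes of lipid synthesis were lower on day 3. In fatty acid synthesis 8 of 9 fell and none rose (median −0.15), or 5 without LacZ day 2 replicate 1, 4 without LacZ day 3 replicate 1 and 5 without LacZ day 3 replicate 2. SCD, which puts the first double bond into fatty acids, went from 1991 and 1960 CPM to 1356 and 1368 CPM (−0.54 ± 0.01, adjusted p = 1.20e-14). ELOVL6, an elongase (−0.42 ± 0.06), and ACLY, which makes cytosolic acetyl-CoA (−0.25 ± 0.03), fell too, and FASN did not pass (−0.04 ± 0.03, adjusted p = 0.322). In cholesterol synthesis 10 of 20 fell (6 without LacZ day 3 replicate 2) and 1 rose (median −0.16). TM7SF2 (20.8 and 21.5 CPM to 11.8 and 13.5 CPM, −0.74 ± 0.11), EBP (−0.34 ± 0.06) and FDPS (−0.25 ± 0.04), all enzymes of the path, fell. SREBF2, the sterol regulator, which is counted in the list on cholesterol uptake and control, rose from 188 and 188 CPM to 225 and 224 CPM (0.25 ± 0.03).

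Cell cycle genes were lower in part. Of 44 genes of G2 and mitosis 23 fell and 2 rose (median −0.13), and of 54 genes of S phase and replication 23 fell and none rose (median −0.12). The first count was 13 without LacZ day 2 replicate 1 and 15 without LacZ day 3 replicate 2, and the second was 15 without either LacZ day 2 replicate and without LacZ day 3 replicate 2. KIF20A, a kinesin of cytokinesis, went from 91.2 and 91.5 CPM to 66.4 and 67.5 CPM (−0.45 ± 0.04, adjusted p = 3.66e-07). FOXM1, the factor that drives mitotic genes (−0.34 ± 0.04), the kinetochore gene CENPF (−0.33 ± 0.03), the mitotic cyclin CCNB1 (−0.30 ± 0.03) and TOP2A, topoisomerase II alpha (618 and 598 CPM to 535 and 532 CPM, −0.19 ± 0.02), fell with it. MKI67, the usual mark of cycling cells, did not pass (347 and 351 CPM, then 348 and 354 CPM, 0.01 ± 0.03, adjusted p = 0.939). ECT2, an exchange factor of cytokinesis, rose from 215 and 222 CPM to 284 and 269 CPM (0.34 ± 0.03, adjusted p = 1.04e-07), and AURKA, the other member called higher, lost its call without LacZ day 2 replicate 2 (0.103) and without LacZ day 3 replicate 1 (0.0603). In S phase, RPA3, a single-strand binding subunit (−0.56 ± 0.06), the nucleotide enzymes RRM1 (−0.31 ± 0.03) and TYMS (−0.29 ± 0.02), and PCNA, the replication clamp (−0.28 ± 0.03), fell. Among regulators of G1, CDKN1A, the p21 inhibitor, went from 239 and 232 CPM to 156 and 155 CPM (−0.60 ± 0.03, adjusted p = 4.86e-11), CDK4 changed by −0.39 ± 0.04, and CCND1 did not pass (0.03 ± 0.02, adjusted p = 0.47). In bulk RNA, fewer cells of a cycle phase and less RNA per cell cannot be told apart.

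The cell cycle genes homology region, searched as its core TTTGAA on both strands, was present in 26 of 37 promoters of the G2 and mitosis list against 15.4% of all genes in the table; 12 of the 26 genes fell and 1 rose, and 7 of the 11 without it fell. TOP2A, which fell, and ECT2, which rose, both carry the core, shown in capitals (in TOP2A once on each strand).
TOP2A (chr17:40417995-40418094, minus strand): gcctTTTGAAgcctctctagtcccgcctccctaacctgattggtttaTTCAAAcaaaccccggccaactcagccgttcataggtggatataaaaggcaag
ECT2 (chr3:172750564-172750663, plus strand): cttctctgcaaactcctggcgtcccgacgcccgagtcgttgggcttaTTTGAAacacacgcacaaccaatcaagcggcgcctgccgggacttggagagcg

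**Figure D2:**
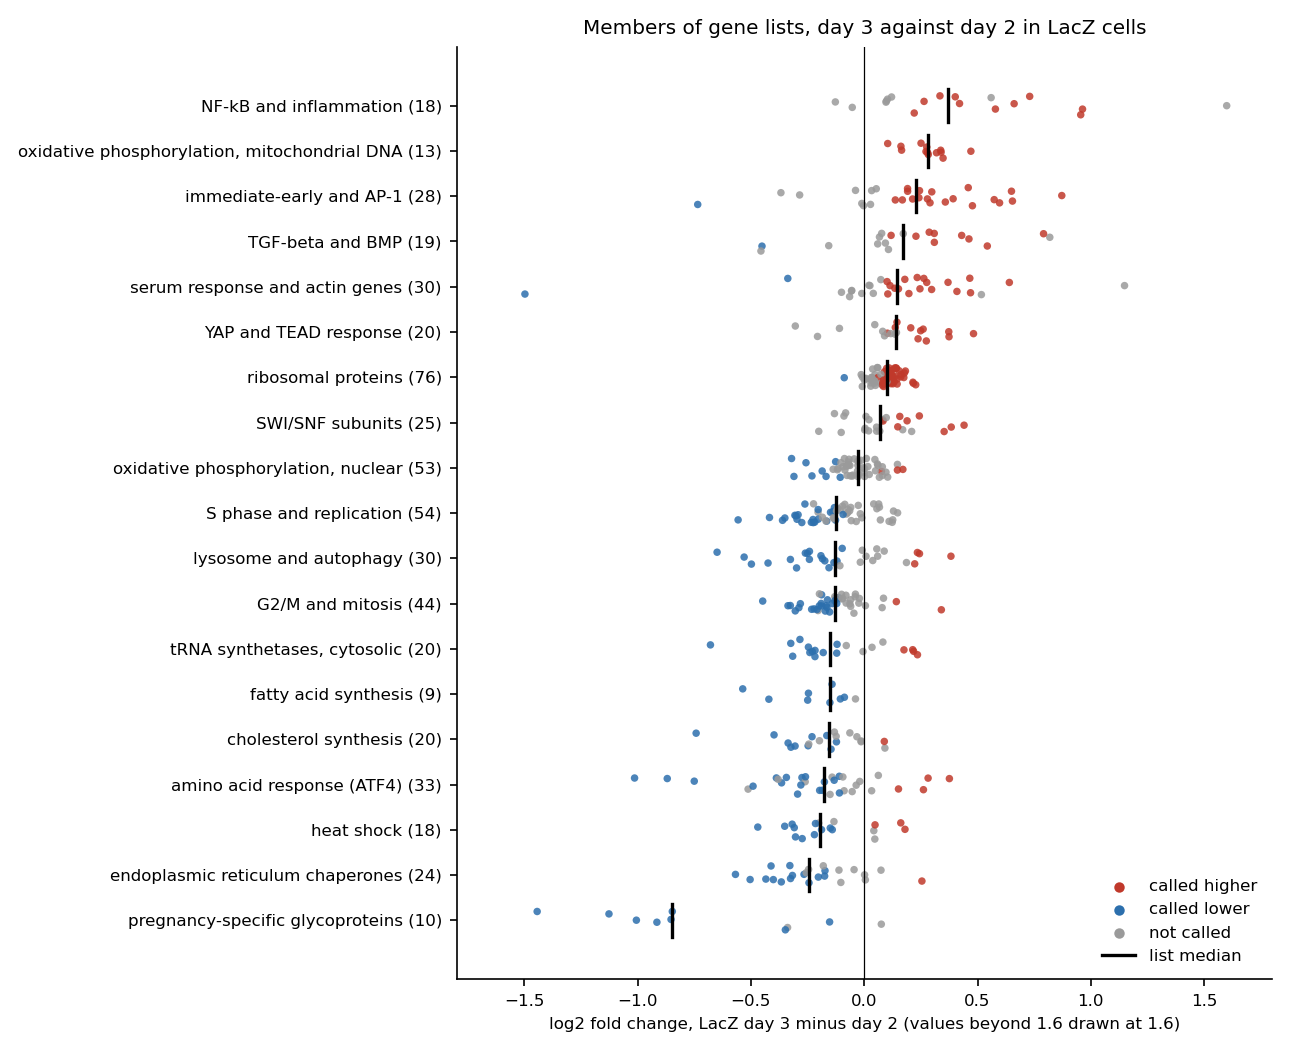
Log2 fold change, day 3 minus day 2 in LacZ cells (x axis, values beyond 1.6 drawn at 1.6), of every tested member of 19 gene lists (rows, number tested in brackets). Red points were called higher, blue points called lower, grey points not called, and the black bar is the list median, which runs from −0.85 for the pregnancy-specific glycoproteins to 0.37 for the NF-kB list.

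Pregnancy-specific glycoproteins had the lowest median of the lists. These secreted proteins of the placenta are encoded side by side on chromosome 19, and 8 of the 10 tested fell while none rose (median −0.85). PSG1 went from 101 and 107 CPM to 52.8 and 50.4 CPM (−1.01 ± 0.04, adjusted p = 1.17e-11), and PSG3 from 24.2 and 17.6 CPM to 7.84 and 7.60 CPM (−1.44 ± 0.13). PSG9, the most abundant, fell by less, from 503 and 513 CPM to 400 and 398 CPM (−0.35 ± 0.02), and PSG4 did not pass (0.08 ± 0.03, adjusted p = 0.121), nor did PSG2 (−0.34 ± 0.13, adjusted p = 0.0766). The genes are close copies, so the sharing of reads among them is uncertain, but the sum over the family also fell, from 968 and 985 CPM to 781 and 773 CPM.

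Matrix genes were split, and the called lysosome and autophagy genes were mostly lower. Of 23 genes of collagens and matrix 4 rose and 7 fell, with VCAN, a large proteoglycan (616 and 589 CPM to 441 and 454 CPM, −0.43 ± 0.02), COL1A1 (−0.38 ± 0.03) and SPARC (−0.17 ± 0.03) lower and COL11A1 (2275 and 2259 CPM to 2725 and 2708 CPM, 0.26 ± 0.01), the laminin LAMA5 (0.31 ± 0.04) and COL6A1 (0.16 ± 0.04) higher. The integrin ITGAV (0.21 ± 0.02) rose. Among lysosome and autophagy genes 17 of 30 fell and 4 rose (median −0.13). NEU1, a sialidase (140 and 146 CPM to 98.4 and 99.5 CPM, −0.53 ± 0.04) and the membrane protein LAMP1 (−0.24 ± 0.03) were lower, while TFE3, a factor that drives lysosomal genes (0.38 ± 0.07), and the autophagy receptor SQSTM1 (0.23 ± 0.02) were higher.

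Chromatin genes also moved. Histone chaperones and replacement histones had 15 of 31 lower and 3 higher (median −0.10), with H2AFZ, the histone H2A.Z (321 and 318 CPM to 230 and 229 CPM, −0.48 ± 0.03), and H3F3B, a histone H3.3 gene (−0.45 ± 0.02), lower and H2AFY, macroH2A (0.24 ± 0.02), higher. Among SWI/SNF subunits 8 of 25 rose and none fell, but only 4 to 5 were called without either LacZ day 2 replicate or without LacZ day 3 replicate 1, and 2 higher and 1 lower with limma on TPM. BRD9 itself rose in these control cells, from 45.8 and 47.6 CPM to 62.2 and 64.5 CPM (0.44 ± 0.06, adjusted p = 2.35e-05), and PHF10, a PBAF subunit, went from 200 and 190 CPM to 256 and 255 CPM (0.38 ± 0.04). SMARCA4, the main ATPase, changed by 0.08 ± 0.02 (adjusted p = 0.00462, and 0.0532 without LacZ day 2 replicate 2).

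The mRNAs of the mitochondrial genome rose. This small circle of DNA encodes 13 mRNAs for subunits of the respiratory chain and 2 ribosomal RNAs, copied as long transcripts that are then cut. All 13 mRNAs were called higher (median 0.28), and 12 with limma on TPM. Their share of all counts was 4.0% and 4.01% on day 2 and 4.70% and 4.73% on day 3, against 5.14% and 5.09% on day 1. MT-ND1, a complex I subunit, went from 2659 and 2678 CPM to 3675 and 3721 CPM (0.47 ± 0.02, adjusted p = 6.92e-12), MT-CYB of complex III changed by 0.32 ± 0.02, MT-ATP6 of the ATP synthase by 0.28 ± 0.02, and MT-CO1 of complex IV by 0.16 ± 0.01. The ribosomal RNA MT-RNR2 fell, from 12110 and 11740 CPM to 10170 and 10180 CPM (−0.23 ± 0.02, adjusted p = 9.25e-08). The other, MT-RNR1, did not pass (616 and 612 CPM, then 598 and 600 CPM, −0.04 ± 0.03, adjusted p = 0.359). The transcripts of this genome thus did not move as one. Of the 53 nuclear genes for the same respiratory complexes, 3 rose and 8 fell (median −0.03), and with limma on TPM 13 fell. Without LacZ day 3 replicate 1, 1 rose.

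**Figure D3:**
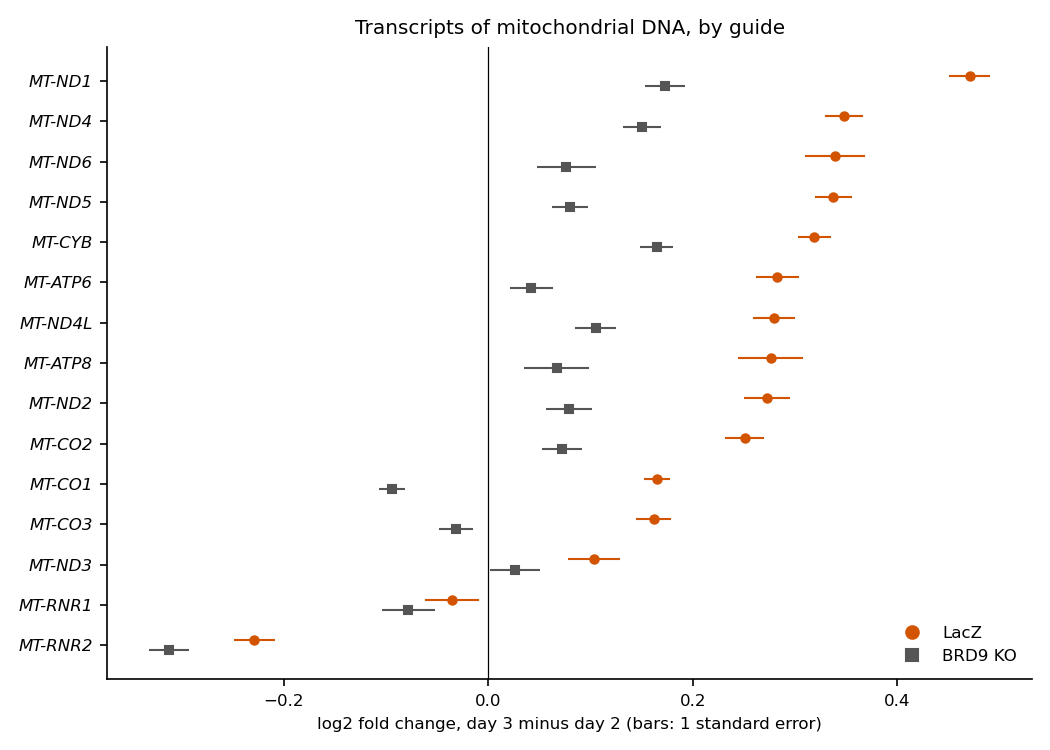
Log2 fold change, day 3 minus day 2, of the 13 mRNAs and 2 ribosomal RNAs of mitochondrial DNA (x axis), with bars of 1 standard error, for LacZ (orange circles) and BRD9 KO (grey squares). Every mRNA lies above 0 in LacZ, from 0.10 to 0.47, and every LacZ value lies above that of BRD9 KO.

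Single genes named by the size of their change follow, some of them members of the lists on oxidative stress, glycolysis and hypoxia. MALAT1, an abundant nuclear long noncoding RNA, went from 140 and 139 CPM to 331 and 352 CPM (1.29 ± 0.05, adjusted p = 4.11e-12). SLFNL1, a gene of the Schlafen-like family, went from 4.01 and 4.52 CPM to 12.0 and 12.3 CPM (1.51 ± 0.14), and ANO9, an anoctamin, from 2.04 and 1.88 CPM to 5.41 and 5.15 CPM (1.42 ± 0.28, adjusted p = 0.00106). ANGPTL2, a secreted angiopoietin-like protein, went from 51.6 and 51 CPM to 18.5 and 20.1 CPM (−1.41 ± 0.07, adjusted p = 6.83e-11), and KLHDC9, a kelch-domain gene, from 4.71 and 5.20 CPM to 1.37 and 1.66 CPM (−1.70 ± 0.27). By difference in CPM, TXNRD1, thioredoxin reductase (947 and 946 CPM to 1297 and 1298 CPM, 0.45 ± 0.01), was among the highest. TUBA1B, an alpha-tubulin (1373 and 1413 CPM to 1104 and 1097 CPM, −0.34 ± 0.02), was among the lowest. The ferritin genes FTL (−0.31 ± 0.03) and FTH1 (−0.18 ± 0.02) and the lactate exporter SLC16A3 (−0.42 ± 0.04) fell, the glucose transporter SLC2A1 (0.21 ± 0.02) and the peptide hormone gene ADM (0.42 ± 0.05) rose, and GAPDH did not pass (−0.01 ± 0.01, adjusted p = 0.404). Some large fold changes belong to genes whose reads are shared with an overlapping gene or a close copy. AMIGO3 (3.0 ± 0.74, adjusted p = 0.00574, and 0.0561 without LacZ day 2 replicate 1) overlaps GMPPB (−1.34 ± 0.23) on the same strand of chromosome 3. The posterior SD that RSEM gives for the AMIGO3 count is 56.3% of the count.

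**Figure D4:**
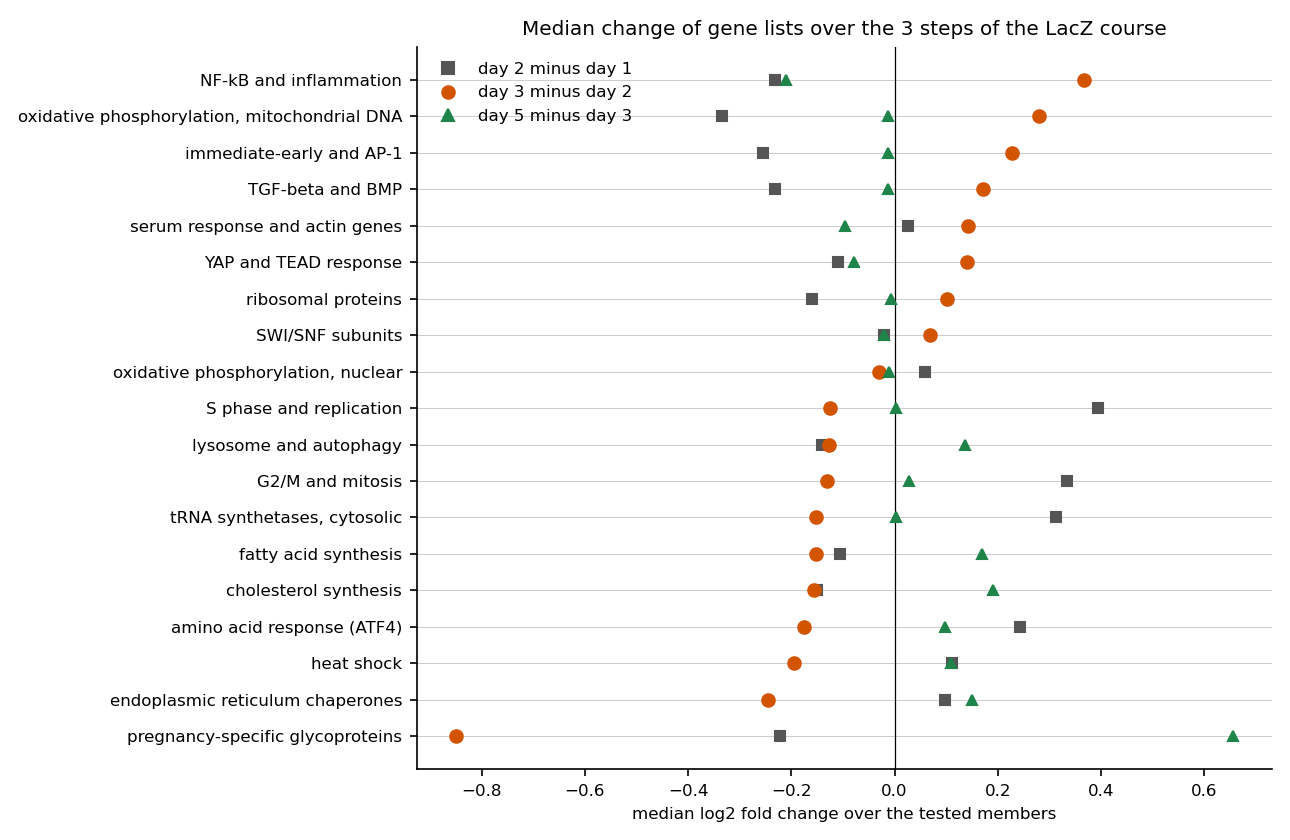
Median log2 fold change over the tested members of the same 19 lists (x axis) for the 3 steps of the LacZ course: day 2 minus day 1 (grey squares), day 3 minus day 2 (orange circles) and day 5 minus day 3 (green triangles). The NF-kB list had medians of −0.23, 0.37 and −0.21, and the pregnancy-specific glycoproteins −0.22, −0.85 and 0.66.

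The step from day 2 to day 3 differed from the steps around it. The step after it, from day 3 to day 5, spans 2 days and is thus longer than the others. An interaction test called 3878 genes (25.8%) for a difference between this step and the step from day 1 to day 2, and 2992 genes (19.9%) for a difference between this step and that from day 3 to day 5. The first count was 2387 without LacZ day 2 replicate 1, and the second 1772 and 1809 without the one or the other LacZ day 3 library. These steps share libraries (day 2 in the first case, day 3 in the second), so a library that stood high on the shared day would push them apart, and the values of each step are given side by side. In the NF-kB list 11 members lay above the step before and 11 above the step after, with NFKB2 at −0.05, 0.96 and −0.69 in the 3 steps. For the 13 mitochondrial mRNAs the step was above the earlier one in all 13 and above the later one in 12, and MT-ND4 changed by −0.59, 0.35 and 0.04. Of the ribosomal proteins 62 of 76 stood above the step before, and EEF2 changed by −0.50, 0.19 and 0.09.

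Several groups that fell in this step lay below the step after it too. Of the 24 endoplasmic reticulum chaperones, 14 lay below the step before and 15 below the step after, and CALR changed by 0.23, −0.57 and 0.41. SCD changed by −0.10, −0.54 and 0.56, ending at 2011 CPM on day 5 against 2125 CPM on day 1. All 10 pregnancy-specific glycoproteins lay below the step after, while 4 lay below and 2 above the step before. PSG1 stood at 137 CPM on day 1 and 76.0 CPM on day 5, and TSPAN10, a tetraspanin gene, changed by −0.41, −1.09 and 1.18. In the cell cycle lists, whose medians in the step before were 0.33 and 0.39, 40 of 44 G2 and mitosis genes and 46 of 54 S phase genes lay below that step, and 15 of each list lay below the step after, with PCNA at 0.59, −0.28 and −0.12. ASNS changed by 1.23, 0.38 and −0.32. H19, an imprinted noncoding RNA at low level, stood at 1.41 and 1.53 CPM on day 2, 3.15 and 3.64 CPM on day 3 and a mean of 0.453 CPM on day 5 (adjusted p = 0.0115 for the step, 0.0854 without LacZ day 2 replicate 1, 0.056 without LacZ day 2 replicate 2 and 0.0857 without LacZ day 3 replicate 2).

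Most of the day 3 change was also present in the BRD9 KO cells, which share no library with the LacZ cells. In BRD9 KO 4599 genes (30.6%) were called between day 2 and day 3. Of the 1954 genes higher in LacZ, 1878 (96.1%) had a positive fold change in BRD9 KO. Of the 1817 lower in LacZ, 1770 (97.4%) had a negative one, beside 49.8% of all genes with a positive change there. Called in both guides were 2765 genes, 2754 of them with the same sign. The median fold change of the LacZ-higher genes was 0.26 in LacZ and 0.24 in BRD9 KO, and that of the LacZ-lower genes was −0.27 and −0.26. CALR (−0.57 in LacZ, −0.56 in BRD9 KO), NFKB2 (0.96 and 1.09), ACTG1 (0.47 and 0.52), SCD (−0.54 and −0.60) and BRD9 (0.44 and 0.47) are examples. The LacZ and BRD9 KO libraries of a day may have been harvested together, which the labels do not say.

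**Figure D5:**
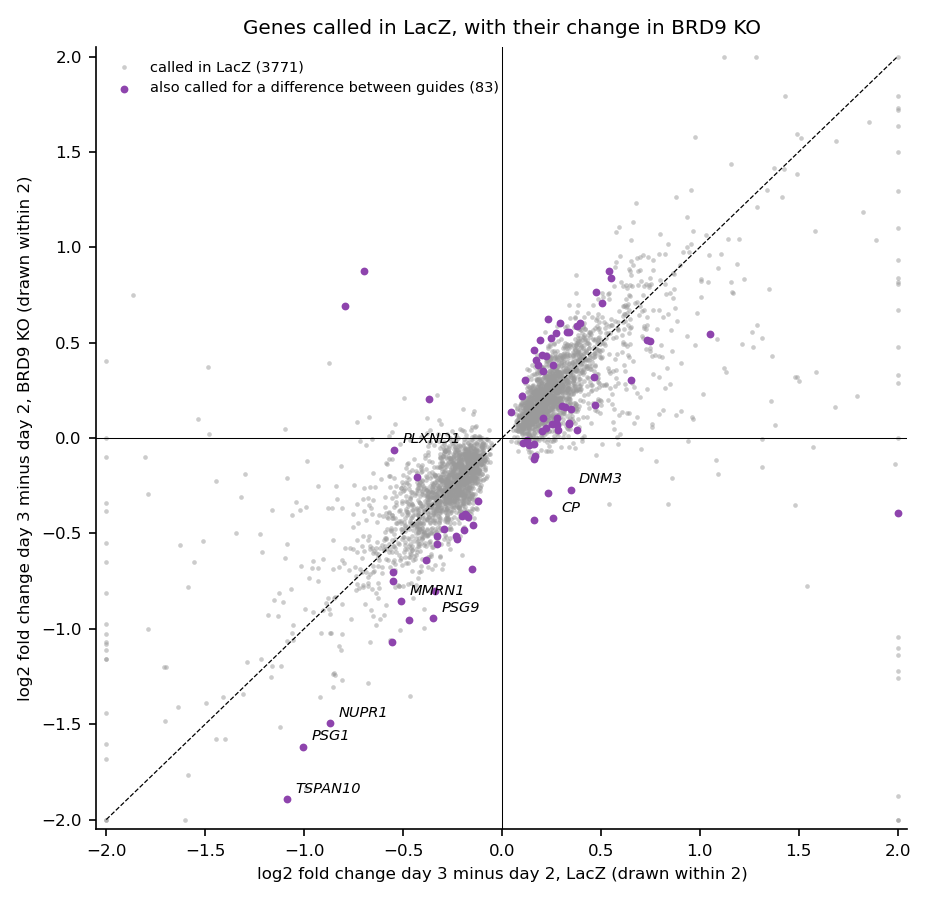
Log2 fold change, day 3 minus day 2, in LacZ (x axis) and in BRD9 KO (y axis) of the 3771 genes called in LacZ, drawn within 2 on both axes. Grey points are genes not called for a difference between guides, purple points the 83 that were, and the dashed line marks equal change; PSG1, NUPR1 and TSPAN10 lie below it.

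A difference between the guides in this step was called for 118 genes (0.785%), 79 of them with the LacZ value above that of BRD9 KO. Of the 118, 63 moved the same way in both guides (47 further in BRD9 KO), 8 moved in opposite ways, 12 were called in LacZ alone and 35 in BRD9 KO alone. Leaving out 1 library gave 71 (BRD9 KO day 3 replicate 1), 73 (replicate 2 of BRD9 KO day 2), 74 (LacZ day 3 replicate 2) and 76 (replicate 1 of LacZ day 2, and likewise of LacZ day 3). Among the mitochondrial mRNAs 12 of 13 differed, each higher in LacZ, with MT-ND1 at 0.47 in LacZ and 0.17 in BRD9 KO (adjusted p of the difference 9.78e-06) and MT-CO1 at 0.16 and −0.09 (adjusted p = 2.36e-07). Their share of counts was 4.58% and 4.60% on day 2 in BRD9 KO, above the 4.0% and 4.01% of LacZ, and 4.58% and 4.78% on day 3, beside 4.70% and 4.73%. The libraries of the guides did not overlap on day 2 and overlapped on day 3. With limma on TPM 5 of the 13 differed.

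Several genes fell in LacZ and fell further in BRD9 KO. PSG9 changed by −0.35 in LacZ and −0.94 in BRD9 KO (adjusted p of the difference 3.38e-09), PSG1 by −1.01 and −1.62 (2.68e-04), NUPR1 by −0.87 and −1.49 (2.63e-04), TSPAN10 by −1.09 and −1.89 (2.59e-04) and MMRN1, a multimerin, by −0.51 and −0.85 (9.78e-06). KRT18 rose by less in LacZ than in BRD9 KO (0.40 against 0.60, adjusted p = 9.78e-06), as did DUSP1 (0.48 against 0.77, adjusted p = 0.00806). Opposite signs were seen for CP, the copper carrier ceruloplasmin (0.26 and −0.42, adjusted p = 1.40e-05), and DNM3, a dynamin (0.35 and −0.27, adjusted p = 9.61e-04). PLXND1, a semaphorin receptor, fell in LacZ (−0.55) and stood at −0.06 in BRD9 KO (adjusted p = 0.0174), while RGS2, a G protein regulator, stood at 0.08 in LacZ and rose in BRD9 KO (0.56, adjusted p = 0.0277). The LacZ changes of CP, DNM3 and PLXND1 were not called with limma on TPM (adjusted p 0.151, 0.842 and 0.0609). Of the cell cycle genes, 6 of 44 in G2 and mitosis and 4 of 54 in S phase were called for a difference, beside 0.785% of all genes. The list medians were −0.13 and −0.12 in LacZ and −0.30 and −0.27 in BRD9 KO.

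The remaining lists are given by their counts, beside the background of 25.1% called. The p53 targets had 2 of 25 higher and 8 lower (5 lower without either LacZ day 2 replicate or LacZ day 3 replicate 1), Polycomb and DNA methylation genes 5 and 7 of 33 (1 to 3 higher without any 1 of the 4 libraries), Wnt genes 4 and 1 of 25, Notch genes 1 and 2 of 14, and HOX genes 6 and 1 of 29 (2 to 3 higher without any 1 of the 4 libraries). Ligands and receptors of the FGF and receptor kinase list had 9 of 22 higher and 3 lower (4 higher with limma on TPM, and 1 lower without LacZ day 2 replicate 1 or either LacZ day 3 replicate), interferon-stimulated genes 5 and 3 of 25 (3 higher without LacZ day 2 replicate 2 or LacZ day 3 replicate 2), apoptosis genes 5 and 5 of 28 (3 lower without LacZ day 3 replicate 1, and 2 higher and 3 lower without LacZ day 3 replicate 2), glycolysis genes 3 and 10 of 21, NRF2 targets 4 and 5 of 20, hypoxia genes 3 and 7 of 26, matrix enzymes and integrins 6 and 6 of 22, and genes of cyclin D and CDK inhibitors 2 and 5 of 16. Genes of cholesterol uptake and its control had 1 of 10 higher and 2 lower, FOXO and growth arrest genes 1 and 2 of 18, replication-dependent histones 0 and 3 of 30 and metal response genes 0 and 1 of 5. The hypoxia count of lower genes was 2 to 4 without any 1 of the 4 libraries, and 1 was higher without LacZ day 2 replicate 1 or LacZ day 3 replicate 2. None of the histones was lower without LacZ day 2 replicate 1, and 1 without LacZ day 3 replicate 2. The other list counts of 3 or fewer changed by at most 1 when any 1 of the 4 libraries was left out. Of 18 kidney progenitor factors 6 passed the filter on low counts, and none of these was called. In some lists the counts also depended on the method. HOX genes had 1 higher and 0 lower with DESeq2 and likewise with limma on TPM. Wnt genes had 1 higher and 0 lower with limma on TPM, and 3 and 1 with DESeq2. Polycomb and DNA methylation genes had 0 higher and 5 lower with DESeq2, and 1 and 6 with limma on TPM.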

How the data were processed

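Per the labels and the study's methods, total RNA of G401 cells was extracted with TRIzol. Libraries were made with a kit that does not mark strand and sequenced on a NextSeq. Reads were aligned to hg19 with STAR and quantified with RSEM (versions not given in the sources used here). The authors deposited RSEM expected counts and TPM for 57820 genes in 16 libraries; the expected counts carry no further normalization, and TPM are scaled to length and library by RSEM.

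Expected counts were rounded (35.7% of values above 0 were not whole), filtered with filterByExpr (minimum count 10, minimum total 15; 15027 genes kept), scaled by TMM and fitted with 1 mean per group over all 16 libraries in edgeR 4.0.16 (R 4.3.3) with the quasi-likelihood test and Benjamini-Hochberg adjustment over all genes tested. Called genes are those with an adjusted p below 0.05. Standard errors were taken from the F statistic. Differences between steps or guides were contrasts of the same fit, and p-values in the text come from this fit unless limma is named. Per-library totals ran from 9185808 to 16560669 counts.

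Members, gene lists and tests were chosen with earlier results of these data known. Genes were named by a rule: the 15 highest and 15 lowest called fold changes at a mean log2 CPM of at least 1, the 8 per direction by CPM difference, up to 5 called members per direction and 2 uncalled abundant members of each list, 6 per direction for each difference between steps, and the markers. Some genes that the rule names are not reported here. Promoter sequences came from RefSeq (GRCh38.p14), and other positions from GRCh37. DESeq2 1.42.0, limma 3.58.1 on log2(TPM + 1), other filters, a replicate block, thinning, smaller sets of libraries and leaving out each library were alternatives. Counts of 15027 genes were simulated for LacZ day 3 against day 2, with 100 genes changed by 1 on the log2 scale and 100 by 0.5. Of those kept by the filter, 90% and 71% were recovered, and 9 of 14573 unchanged genes were called. The simulated spread followed the trend fitted to these data and held no difference between harvests. False calls from such a difference were therefore not measured.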

Additional observations from a re-analysis of the deposited data

Results flagged for a closer look

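The change from day 2 to day 3 differed between the guides in 118 genes, between this step and the step before in 3878 genes and between this step and the step after in 2992 genes, each by a contrast of the same edgeR fit at an adjusted p under 0.05. Of the genes named in the text, those with a difference between the guides are given with the log2 change in LacZ minus that in BRD9 KO. Among mitochondrial mRNAs these were MT-ATP6 (0.24), MT-CO1 (0.26), MT-CO2 (0.18), MT-CYB (0.15), MT-ND1 (0.30), MT-ND4 (0.20), MT-ND5 (0.26). Other genes with a higher value in LacZ were CENPF (0.19), COL1A1 (0.25), CP (0.68), DNM3 (0.62), GAPDH (0.078), MMRN1 (0.34), NUPR1 (0.62), PSG1 (0.61), PSG9 (0.60), SLC2A1 (0.10), SPARC (0.24), TAGLN (0.15), TOP2A (0.21), TSPAN10 (0.80), TYMS (0.19). Genes with a lower value in LacZ were COL6A1 (−0.30), CRYAB (−0.21), DUSP1 (−0.29), HSPA8 (−0.087), ITGAV (−0.14), KRT18 (−0.21), KRT8 (−0.22), PLXND1 (−0.49), RGS2 (−0.48), VCAN (−0.23).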

How the results depend on the processing

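For LacZ day 3 against day 2, 3771 genes were called, against 2296 with DESeq2 (no adjusted p for 3496 genes), 1978 with limma on TPM and 620 when a log2 change of at least 0.5 was also asked. The same settings gave 2990, 2400 and 890 for BRD9 KO, 2464, 2106 and 1611 for the difference from the step before, and 1832, 1365 and 1194 for the difference from the step after. The difference between guides had 24 calls with limma on TPM, 20 with the size limit and 300 with no filter on low counts. With the size limit 49 list members (of 533) and 43 named genes (of 147) were called. Size limits call fewer genes by construction; for the other settings the cause was not tested. Leaving out 1 library gave 2544 to 2714 calls for LacZ, 3306 to 3660 for BRD9 KO, 71 to 98 between guides, 2387 to 3416 against the step before and 1772 to 2668 against the step after. Of the 147 called named genes, 128 lost the call in no setting other than the size limit (DESeq2 gave no adjusted p for 5 of the 147); 15 lost the call with limma on TPM, 5 with DESeq2, 1 with no filter and 6 to 8 without 1 library. No named gene was counted as changing direction in these settings. Of 27 lists with a median of at least 0.1 in size, 1 (metal response) changed sign in 1 setting. The split of calls did turn with limma on TPM. For LacZ it went from 1954 higher and 1817 lower to 733 and 1245. For the difference from the step before it went from 1978 and 1900 to 648 and 1458. For the step after it went from 1576 and 1416 to 533 and 832. The labels number replicates alike on each day, but same-numbered LacZ libraries of days 2 and 3 did not deviate together (r = −0.02 over 15027 genes and −0.20 over 6273 abundant ones). With a replicate block 3725 genes were called for LacZ, 4535 for BRD9 KO, 132 between guides, 3865 against the step before and 2930 against the step after, and no named gene lost its call.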
